A study of Mus musculus with 11 samples.

Results

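The genes described here are markers of the cells that surround motor neurons in the embryonic spinal cord: progenitor, glial, interneuron and vascular markers, with a few of macrophages and red blood cells. The set is a list of 31 gene symbols. Each gene is represented by 1 probe set of the array, the one annotated to that single symbol with the highest mean over all 11 arrays. This gave 30 measured genes of 18193 with a probe set of a single symbol, and Pax2 was not analysed here. By role they are 9 progenitor, 4 glial, 8 interneuron, 5 vascular and 3 macrophage genes and 1 erythroid gene.

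RNA came from motor neurons of C57/BL6 mouse embryos, sorted by fluorescence from dissociated spinal cord and measured on Affymetrix arrays. All embryos carried Hb9::GFP, a green fluorescent reporter driven by a gene of motor neurons, and the labels give the stage only as embryos. The 4 phrenic arrays hold motor neurons filled with a rhodamine dextran through the phrenic nerve, which supplies the diaphragm. The 3 LMC radial arrays hold lateral motor column neurons filled in the same way through the radial nerve of the forelimb, and their labels name no segment. The 4 C3-C5 GFP-only arrays hold motor neurons of cervical segments C3 to C5 named in the labels for their GFP alone. The sorting gates and the purity of the sorts are not given in the sources used here. Nothing in the labels ties a replicate to an embryo or litter of its own, and the p-values below therefore reflect only how much the arrays differ, which may be technical. The number of arrays limits the precision.

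The neural tube is built from dividing progenitors around its central canal, which express Sox2, Nes and the Notch targets Hes1 and Hes5 and give rise to neurons first and to glia later. Motor neurons settle in the ventral cord beside interneurons, which are told apart by their transmitter enzymes and by transcription factors such as Lbx1. Blood vessels and macrophages enter the cord from outside, so RNA of their markers is taken here as a measure of other cells in the sample. The source of that RNA was not tested.

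Levels are RMA values on the log2 scale, 1 unit being a doubling, and levels are compared only between arrays for the same probe set. The array medians lay between 4.48 and 4.63, and 5 is used below as a mark near them; it is not a limit of detection. A gene is called where limma's adjusted p, over all 45037 probe sets of a comparison, is under 0.05. The 10 motor neuron genes checked averaged at least 7.80 on every array, and all 10 had a mean of 5 or more in the phrenic and the C3-C5 GFP-only type, against 7 of 10 in the LMC radial type. The arrays fall into 2 sets by their 25th percentile. Replicates 2 and 3 of the phrenic and of the C3-C5 GFP-only type lay between 3.18 and 3.20, and the other 7 arrays lay between 3.26 and 3.38. Among these 7 the LMC radial arrays were highest, at 3.32 to 3.38, and phrenic replicate 4 came next at 3.30. Several genes given below were higher in LMC radial arrays at low levels. The part of this raised low end in those differences was not tested.

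As a group the markers were lowest in the C3-C5 GFP-only arrays. The mean level over the 30 genes was 4.93 ± 0.09 (SD, n = 4) there, 5.47 ± 0.46 (SD, n = 4) in the phrenic arrays and 5.27 ± 0.29 (SD, n = 3) in the LMC radial arrays. The C3-C5 GFP-only mean was below the mean of the other types for 26 of 30 genes, against 51.7% of all probe sets. Phrenic replicate 2 (4.94) and LMC radial replicate 3 (4.96) lay within the C3-C5 GFP-only range of 4.85 to 5.05. Few of the differences passed the test. Between phrenic and C3-C5 GFP-only arrays 2 of 30 were called, Gja1 and Slc1a3, both higher in phrenic arrays, where 0.973% of all probe sets were called higher and 0.986% lower. With the replicate number as a block 0 were called. The median difference of the 30 genes was 0.25, against about 0 over all probe sets. The mean level of the 10 motor neuron genes was highest in the C3-C5 GFP-only arrays, at 9.02 ± 0.08 (SD, n = 4), with 8.31 ± 0.08 (SD, n = 4) in phrenic and 7.93 ± 0.11 (SD, n = 3) in LMC radial arrays. Of the 10, 3 were called lower in phrenic than in C3-C5 GFP-only arrays, namely Lhx3, a factor of medial motor neurons, with a difference of -4.90 ± 0.47 (SE; limma, adjusted p = 0.000385), Gfra1, a receptor of a neurotrophic factor (-1.33 ± 0.20; adjusted p = 0.00649), and Isl2, a factor of motor neurons (-0.99 ± 0.16; adjusted p = 0.0105). Lower in LMC radial than in C3-C5 GFP-only arrays were 4 of 10, where 3.76% of all probe sets were called in either direction. The median difference over the 10 was -0.60 there, with 8 genes below 0 and 2 above. In phrenic minus C3-C5 GFP-only arrays it was -0.14, with 6 genes below 0 and 4 above. Much of the gap in the mean of the 10 came from Lhx3. In C3-C5 GFP-only arrays Lhx3 lay 5.53 ± 0.42 (SE) above the mean of the other types. The part of the motor neuron genes in the levels of the markers was not tested. In bulk samples more cells of a type and more RNA per cell cannot be told apart.

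Against the mark of 5, which describes the chosen probe sets and not the order of the genes, 7 genes were at 5 or more on all 11 arrays, namely Sox2, Sox9, Nes, Vim, Fabp7, Gja1 and Lbx1. The chosen probe sets of another 12 were below 5 on every array: Hes1, Olig2, Olig1, En1, Lhx9, Pecam1, Cdh5, Kdr, Adgre1, Aif1, Csf1r and Alas2, although other probe sets of Csf1r passed 5 on some arrays. The other 11 reached 5 on some arrays, and among these were the transmitter genes of interneurons and the vascular receptors Tek and Flt1.

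**Figure D1:**
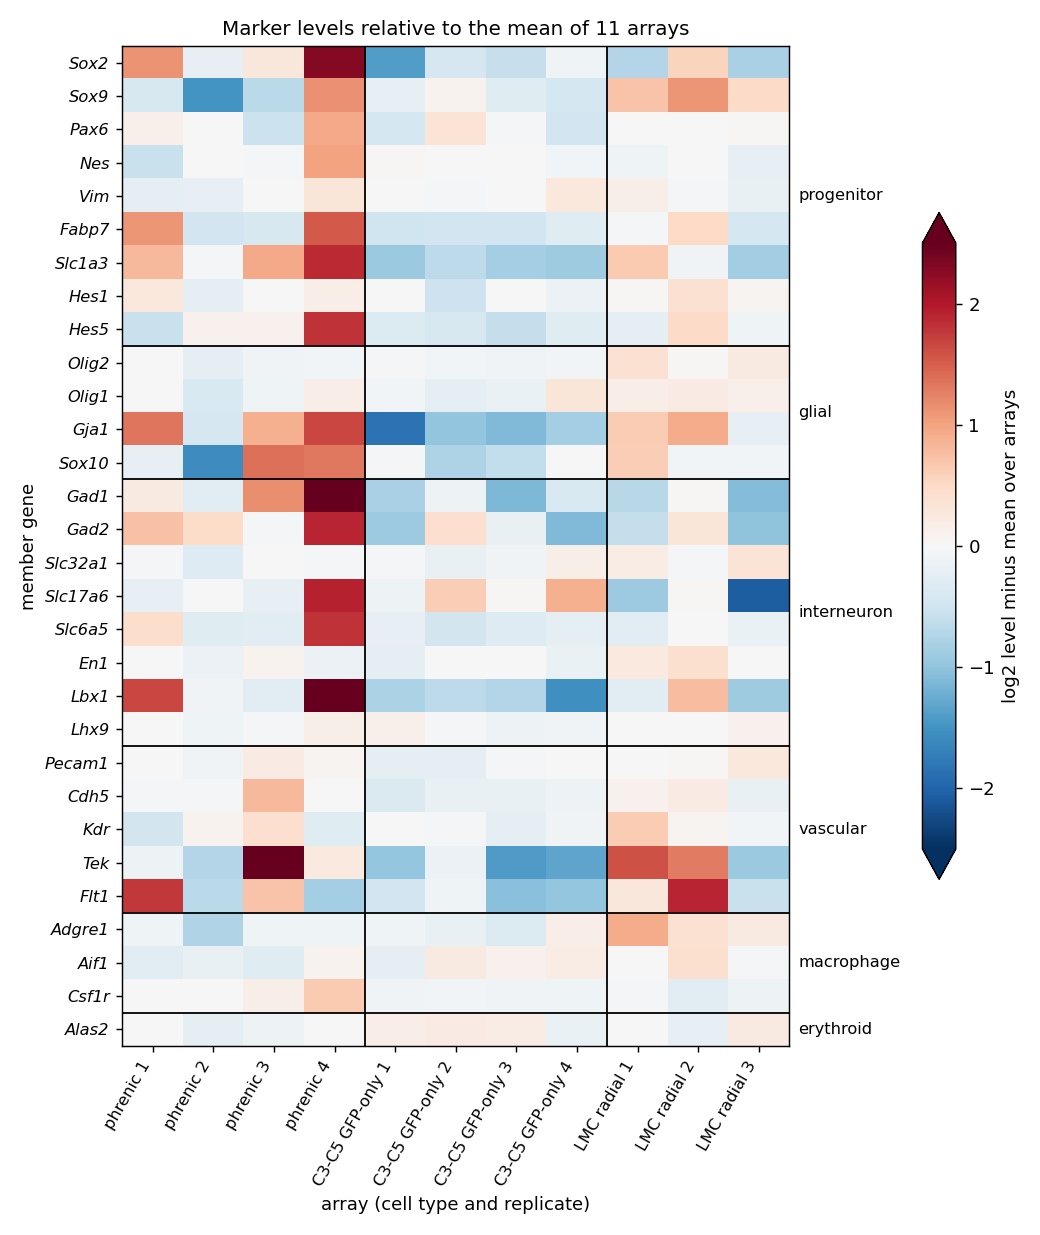
Level of each of the 30 marker genes (rows, grouped by role) on each of the 11 arrays (columns), as the log2 level minus that gene's mean over the arrays; colours stop at 2.5 on either side. Phrenic replicate 4 is the highest array for 16 of 30 genes, mostly progenitor and interneuron genes, and the C3-C5 GFP-only columns are mostly at or below the mean.

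The promoters of both called genes are shown because these genes were higher together in the phrenic arrays. The letters are RefSeq's for GRCm38.p6, the 250 bases before each annotated start, read on the gene's strand from 5′ to 3′; 21 of the 30 genes had a promoter in that table. Gja1 lies on the plus strand (chr10:56377050-56377299) and its capitals mark TGAGTCA, the letters of an AP-1 site. Slc1a3 lies on the minus strand (chr15:8710808-8711057) and its capitals mark ACAAT, the core letters read by SOX factors, found here on the opposite strand.
Gja1: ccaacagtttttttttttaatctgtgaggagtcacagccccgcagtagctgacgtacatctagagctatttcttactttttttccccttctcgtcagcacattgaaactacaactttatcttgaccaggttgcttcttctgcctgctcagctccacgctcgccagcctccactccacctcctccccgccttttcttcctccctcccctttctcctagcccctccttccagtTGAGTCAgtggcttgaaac
Slc1a3: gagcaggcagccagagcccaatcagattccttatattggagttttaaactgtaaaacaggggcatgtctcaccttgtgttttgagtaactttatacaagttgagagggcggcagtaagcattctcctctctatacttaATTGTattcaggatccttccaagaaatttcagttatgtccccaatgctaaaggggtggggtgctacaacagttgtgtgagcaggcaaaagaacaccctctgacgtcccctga

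Both strands of these promoters were searched for ACAAT and for the core letters of the Notch partner RBPJ, which are TGGGAA. The search for TGAGTCA was added after the letters had been seen. In Gja1 TGAGTCA stood 19 to 13 bases before the start, and in Slc1a3 ACAAT stood 112 to 108 bases before it, with no overlap between motifs. TGGGAA was in neither window. Of all 32851 promoters of this length, 27.7% held the SOX letters, 21.6% the RBPJ letters and 4.46% the AP-1 letters. A match of letters is a description and says nothing of binding.

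Slc1a3 encodes a glutamate transporter of radial glia and astrocytes, and it was the called gene among the 9 progenitor markers. Its levels were 6.51, 5.66, 6.63 and 7.56 on phrenic arrays 1 to 4. On the C3-C5 GFP-only arrays they were 4.75, 5.04, 4.85 and 4.80, and on the LMC radial arrays 6.35, 5.61 and 4.83. Every phrenic array lay above every C3-C5 GFP-only array, and the LMC radial arrays ran from the level of the latter to that of the former. The phrenic mean was 1.73 ± 0.38 (SE) higher than the C3-C5 GFP-only mean on the log2 scale (limma, adjusted p = 0.045), or 2.99-fold with values below 5 raised to 5. It lay 0.99 ± 0.41 above the LMC radial mean without passing the test (adjusted p = 0.183). Slc1a3 had 5 other probe sets; over all 6 the phrenic minus C3-C5 GFP-only difference ran from -0.06 to 1.73, and 1 was called. The mean of all 6 differed by 0.55 ± 0.15 (SE; adjusted p = 0.0797).

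Sox2, a transcription factor of neural progenitors, followed a similar order without being called. It was at 8.37, 7.05, 7.53 and 9.54 in phrenic arrays 1 to 4. Levels in C3-C5 GFP-only arrays were 5.85, 6.83, 6.67 and 7.15, and the LMC radial arrays 6.51, 7.81 and 6.44. Phrenic replicates 1 and 4 stood above the other 9 arrays, while phrenic replicate 2 lay within the range of both other types. The phrenic mean was 1.50 ± 0.52 (SE) above that of C3-C5 GFP-only arrays (adjusted p = 0.211) and 1.21 ± 0.56 above that of LMC radial arrays (adjusted p = 0.235).

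Sox9, which acts in progenitors and in the switch to glia and is also a factor of cartilage, had a different order. Its phrenic levels were 8.06, 6.96, 7.79 and 9.60. The C3-C5 GFP-only levels were 8.24, 8.54, 8.15 and 8.01, and the LMC radial levels were 9.17, 9.57 and 8.93. The LMC radial arrays all lay above the C3-C5 GFP-only arrays and above 3 of the 4 phrenic arrays, with phrenic replicate 4 the highest of all. The LMC radial mean was 0.99 ± 0.47 (SE) above the C3-C5 GFP-only mean (adjusted p = 0.272), and the phrenic minus LMC radial difference was -1.12 ± 0.47 (adjusted p = 0.191). Without phrenic replicate 4 that difference was -1.62 and passed the test (adjusted p = 0.00518), and the LMC radial minus C3-C5 GFP-only difference of 0.99 also passed (adjusted p = 0.0499).

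Fabp7, the lipid binding protein of radial glia, was at 9.63 and 10.05 in phrenic replicates 1 and 4 but at 8.03 and 8.12 in replicates 2 and 3. The C3-C5 GFP-only arrays lay between 8.02 and 8.20 and the LMC radial arrays between 8.08 and 9.01. Its phrenic arrays were thus split, with replicates 2 and 3 at the level of the C3-C5 GFP-only arrays. Hes5, an effector of Notch signalling, was at 7.37 in phrenic replicate 4 and between 4.95 and 6.03 on the other 10 arrays. Nes, an intermediate filament of progenitors, was at 7.07 in phrenic replicate 4 and between 5.51 and 6.10 elsewhere. For both genes a single phrenic array stood apart.

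The other progenitor markers varied less. Vim, a filament protein of progenitors and of mesenchyme, lay between 11.80 and 12.32 on all arrays, and its type means differed by at most 0.08. Pax6, a factor of progenitors of the intermediate and ventral cord, was at 6.13 in phrenic replicate 4 and between 4.64 and 5.51 elsewhere. Hes1, a second Notch effector, stayed between 3.53 and 4.44. None of Vim, Pax6, Hes1, Hes5, Nes, Fabp7, Sox2 and Sox9 was called in any of the 6 comparisons.

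Gja1 encodes a connexin, a gap junction protein of progenitors and astrocytes and of many mesenchymal cells. Its levels on phrenic arrays 1 to 4 were 9.81, 8.06, 9.37 and 10.15. The C3-C5 GFP-only arrays were at 6.63, 7.49, 7.37 and 7.63, and the LMC radial arrays at 9.12, 9.40 and 8.28. Every C3-C5 GFP-only array lay below every array of both other types, whose ranges overlapped. The phrenic mean of 9.35 ± 0.91 (SD, n = 4) was 4.19-fold the C3-C5 GFP-only mean of 7.28 ± 0.44 (SD, n = 4), a log2 difference of 2.07 ± 0.42 (SE; limma, adjusted p = 0.0333).

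The LMC radial mean of Gja1 was 8.93 ± 0.59 (SD, n = 3), which was 1.65 ± 0.46 (SE) above the C3-C5 GFP-only mean and did not pass the test (adjusted p = 0.0749). Against the mean of both other types Gja1 was lower in C3-C5 GFP-only arrays by a difference of -1.86 ± 0.38 (limma, adjusted p = 0.0483). That was 1 of 30 genes called lower, where 0.282% of all probe sets were called lower; this comparison shares its C3-C5 GFP-only and phrenic arrays with the pairwise one. Gja1 has 6 probe sets, of which 5 were called higher in phrenic than in C3-C5 GFP-only arrays. The exception, at 3.31 to 4.25 on all arrays, differed by -0.08.

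The count of called genes between phrenic and C3-C5 GFP-only arrays was 2 without phrenic replicate 2 or LMC radial replicate 3, and 1 without LMC radial replicate 1 or 2. It was 0 without any one of phrenic replicates 1, 3 and 4 or C3-C5 GFP-only replicates 1, 2, 3 and 4. With the replicate number as a block, the differences stayed at 2.07 for Gja1 (adjusted p = 0.0605) and 1.73 for Slc1a3 (adjusted p = 0.0665) and neither was called. Gja1 in C3-C5 GFP-only arrays against the mean of the others was at -1.95 with that block (adjusted p = 0.0619). The Gja1 difference was 2.85 within the arrays of the higher 25th percentile (adjusted p = 0.0796) and 1.28 within those of the lower (adjusted p = 0.386), and that of Slc1a3 2.26 (adjusted p = 0.164) and 1.20 (adjusted p = 0.306). The call of Gja1 as lower in C3-C5 GFP-only arrays was lost without any one of phrenic replicates 1 and 3, C3-C5 GFP-only replicates 1, 2, 3 and 4 and LMC radial replicates 1 and 2.

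**Figure D2:**
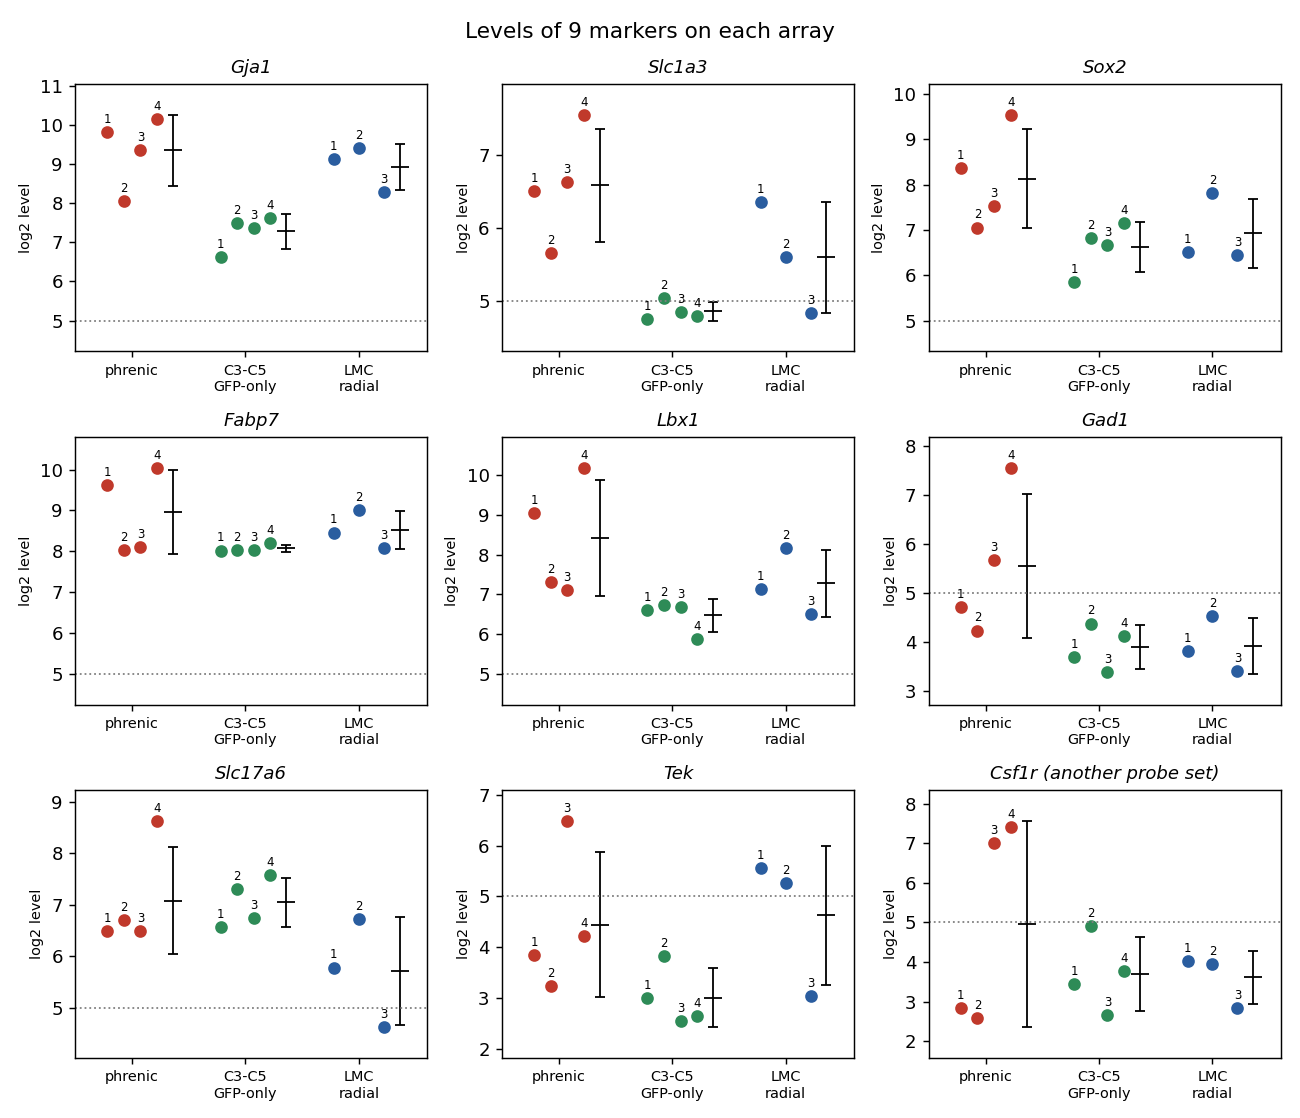
Log2 level of 9 marker probe sets on each array, with the replicate number above each point; the bar beside each type is its mean ± SD (n = 4, 4 and 3) and the dotted line marks 5. Gja1 and Slc1a3 separate phrenic from C3-C5 GFP-only arrays, Sox2, Fabp7, Lbx1, Gad1 and Slc17a6 are highest in phrenic replicate 4, Tek is highest in phrenic replicate 3, and the Csf1r panel shows the probe set that was high in phrenic replicates 3 and 4.

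Of the other glial markers, Sox10, a factor of the neural crest, Schwann cells and oligodendrocyte lineage, was at 4.83, 3.45, 6.41 and 6.36 in phrenic arrays 1 to 4. The C3-C5 GFP-only arrays lay between 4.26 and 5.04 and the LMC radial arrays between 4.96 and 5.65. Phrenic replicates 3 and 4 stood above all other arrays and phrenic replicate 2 below them, and no difference between types was called. Of its dimmer probe sets, 1 was highest in phrenic replicate 4 (4.61), with 4.06 in replicate 3. The other was highest in C3-C5 GFP-only replicate 4 (3.62). Olig2 and Olig1, factors of motor neuron and oligodendrocyte progenitors, stayed at 2.51 to 3.12 and 2.98 to 3.66. Olig2 was higher in the 3 LMC radial arrays (2.76 to 3.12) than in all others (2.51 to 2.74), all of them low levels, and was not called.

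Among interneuron markers the highest level was most often that of phrenic replicate 4. Lbx1, a factor of dorsal interneurons, was at 9.06, 7.31, 7.12 and 10.19 in phrenic arrays 1 to 4. The C3-C5 GFP-only arrays were at 6.60, 6.74, 6.67 and 5.87 and the LMC radial arrays at 7.14, 8.18 and 6.51. The phrenic arrays lay above every C3-C5 GFP-only array and overlapped the LMC radial arrays, and the phrenic minus C3-C5 GFP-only difference of 1.95 ± 0.62 (SE) did not pass the test (adjusted p = 0.176). A second probe set of Lbx1 had its highest level in phrenic replicate 1 (5.83), with 4.65 in replicate 4.

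Gad1 and Gad2 encode the enzymes that make GABA. Gad1 was at 4.73, 4.24, 5.67 and 7.55 in phrenic arrays 1 to 4, and at 3.39 to 4.38 in the C3-C5 GFP-only and 3.42 to 4.54 in the LMC radial arrays. Gad2 was at 6.04, 5.76, 5.28 and 7.20 in phrenic arrays, at 4.20 to 5.72 in C3-C5 GFP-only arrays and at 4.29 to 5.61 in LMC radial arrays. Phrenic replicate 4 led for both. For Gad1 phrenic replicate 2, and for Gad2 phrenic replicate 3, lay within the range of the other types, and the other phrenic arrays lay above it. The phrenic minus C3-C5 GFP-only differences were 1.65 ± 0.60 (SE, adjusted p = 0.243) and 1.21 ± 0.45 (SE, adjusted p = 0.267). All these values are of the chosen probe sets. A dimmer probe set of Gad1 stayed between 2.49 and 2.93 on all arrays. A dimmer one of Gad2 was highest in phrenic replicate 1 (3.47), with 2.98 in replicate 4.

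Slc17a6, a vesicular glutamate transporter, was at 6.49, 6.71, 6.48 and 8.63 in phrenic arrays 1 to 4. Its C3-C5 GFP-only arrays were at 6.58, 7.31, 6.74 and 7.58 and the LMC radial arrays at 5.79, 6.73 and 4.64. Its lowest level was in LMC radial replicate 3, and the types overlapped. Both the LMC radial minus C3-C5 GFP-only difference of -1.33 ± 0.58 (SE, adjusted p = 0.228) and the phrenic minus LMC radial difference of 1.36 ± 0.58 (SE, adjusted p = 0.195) missed the threshold. A dimmer probe set of Slc17a6 was at 4.87 and 4.51 in phrenic replicates 4 and 1 and at most 3.63 elsewhere. Its LMC radial minus C3-C5 GFP-only difference was 0.17, of the opposite sign.

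Slc6a5, the glycine transporter of glycinergic neurons, was at 6.28 in phrenic replicate 4 and between 4.02 and 4.92 elsewhere. A dimmer probe set of Slc6a5 was highest in LMC radial replicate 1 (4.43), with 4.08 in phrenic replicate 4. The vesicular transporter of GABA and glycine, Slc32a1, stayed between 4.38 and 5.04 on its chosen probe set. A dimmer one, singled out after its values were seen, was highest in phrenic replicates 4 (4.86) and 1 (4.31) and at most 3.76 elsewhere. En1, a factor of ventral inhibitory interneurons, lay between 2.44 and 3.06, and Lhx9, a factor of commissural neurons, between 4.36 and 4.63. A dimmer probe set of Lhx9, also singled out afterwards, was at 4.56 and 4.63 in LMC radial replicates 1 and 2 and at most 3.60 elsewhere. That probe set passed the test in LMC radial minus C3-C5 GFP-only arrays (1.41 ± 0.24, SE, limma, adjusted p = 0.0108). It also passed in phrenic minus LMC radial arrays (-1.10 ± 0.24, adjusted p = 0.0214) and in LMC radial arrays against the others (1.25 ± 0.21, adjusted p = 0.00642). With the mean of all its probe sets taken, Lhx9 was 0.69 ± 0.17 (SE) higher in LMC radial than in C3-C5 GFP-only arrays (limma, adjusted p = 0.0478), while the chosen one differed by 0.06.

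On the chosen probe sets, phrenic replicate 4 held the highest level for 16 of 30 genes, or 53.3%, against 14.6% of all probe sets. These were 8 of 9 progenitor genes, Hes1 being the exception, and 6 of 8 interneuron genes, with 1 glial and 1 macrophage gene and none of the 5 vascular genes. With that array left out, the highest level was in phrenic replicates 1 and 3 and LMC radial replicate 2 for 6 genes each, and in no other array for more than 3. The mean over the 30 genes was 6.07 in phrenic replicate 4, against 5.43, 4.94 and 5.43 in phrenic replicates 1 to 3.

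The vascular genes were led by other arrays. Tek, the receptor of angiopoietins on endothelium, was at 3.84, 3.24, 6.49 and 4.22 in phrenic arrays 1 to 4. In C3-C5 GFP-only arrays it was at 3.00, 3.82, 2.55 and 2.65 and in LMC radial arrays at 5.56, 5.27 and 3.04. Tek was above 5 in phrenic replicate 3 and LMC radial replicates 1 and 2 and below it on the other 8 arrays, so arrays of 1 type fell on either side. Its differences from C3-C5 GFP-only arrays were 1.44 ± 0.71 (SE, adjusted p = 0.438) in phrenic and 1.62 ± 0.77 (SE, adjusted p = 0.267) in LMC radial arrays.

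Flt1, a receptor of vascular endothelial growth factor, was at 6.25, 3.82, 5.20 and 3.64 in phrenic arrays 1 to 4. It was at 4.77, 6.39 and 3.93 in LMC radial arrays and at 3.45 to 4.38 in C3-C5 GFP-only arrays. LMC radial replicate 2 and phrenic replicate 3 were above 5 for both Flt1 and Tek, while phrenic replicate 1 was so for Flt1 only and LMC radial replicate 1 for Tek only. The other probe sets of Flt1 were below 5 on every array. Phrenic replicate 1 was the lowest array on 1 of them (3.23) and the highest on another (3.84). Cdh5, the cadherin of endothelial junctions, was at 4.61 in phrenic replicate 3 and between 3.44 and 4.00 elsewhere. A dimmer probe set of Cdh5 was at 3.18 in phrenic replicate 3 and highest in replicate 1 (3.65). Pecam1, an adhesion molecule of endothelium, and Kdr, a second receptor of that growth factor, stayed at 3.35 to 3.84 and 3.85 to 4.95. All 5 vascular genes had a mean below 5 in the phrenic and C3-C5 GFP-only types, and Flt1 alone reached a mean of 5.03, in LMC radial arrays; none was called.

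The chosen probe sets of the macrophage markers Adgre1, Aif1 and Csf1r were below 5 on every array, which did not hold for the other probe sets of Csf1r. Adgre1, which encodes a surface receptor of macrophages, was at 4.14, 3.58 and 3.43 in LMC radial arrays, above all phrenic arrays (2.46 to 3.11) and all C3-C5 GFP-only arrays (2.86 to 3.38). The difference phrenic minus LMC radial was -0.77 ± 0.22 (SE) and narrowly missed the threshold (adjusted p = 0.0594), at levels below the array medians in both. Aif1, a cytoskeletal protein of macrophages and microglia, lay between 2.77 and 3.49.

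Csf1r, the receptor of macrophage colony stimulating factor, depended on the probe set. The chosen one lay between 3.99 and 4.90, with the phrenic arrays above all others. Another, singled out after its values were seen, was at 7.00 and 7.42 in phrenic replicates 3 and 4, at 2.85 and 2.59 in replicates 1 and 2, and at 2.66 to 4.91 in the other types. The remaining one gave 5.23 and 5.28 in phrenic replicates 3 and 4 and at most 3.66 elsewhere. Both had the same pair of phrenic arrays high, while the chosen one had replicate 4 highest.

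On average the macrophage list beyond these genes was high in the same pair. The mean of its 13 genes was 4.84 and 4.91 in phrenic replicates 3 and 4, 3.45 and 3.37 in replicates 1 and 2, and 3.38 to 3.97 in the other types. C1qb, a complement component of macrophages, was at 7.37 in phrenic replicate 3 and 5.52 in replicate 4, and between 2.75 and 3.39 on the other arrays. Not every gene of the list had this order. Cx3cr1 was at 5.14 to 5.53 in LMC radial arrays, and its lowest level of all arrays was 4.11 in phrenic replicate 3. Lyz2 was highest in LMC radial replicate 2 (4.34), and Fcer1g in phrenic replicate 3 (5.72). None of the 13 was called by limma in the 6 comparisons, and 1, 1 and 3 were at an unadjusted p under 0.05 in phrenic against C3-C5 GFP-only, phrenic against LMC radial and LMC radial against C3-C5 GFP-only arrays.

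Alas2, the heme synthesis enzyme of red blood cells, stayed between 3.05 and 3.53. Hbb-y, an embryonic globin, varied far more and was at 3.35 in phrenic replicate 3, 6.53 in LMC radial replicate 2, and 8.09 to 10.46 on the other 9 arrays. The mean of the 8 erythroid genes of the wider list was lowest in those same arrays, at 3.42 and 4.16, against 4.72 to 5.93 elsewhere. Not every gene of that list followed. Epor (3.14 and 3.57) and Klf1 (3.88 and 3.68) lay there within the range of the other arrays. Hba-a1 was lowest in phrenic replicate 3 (2.94) and highest in LMC radial replicate 2 (3.47). By type the mean of the 8 was 5.16 in C3-C5 GFP-only, 4.82 in phrenic and 5.05 in LMC radial arrays. Phrenic replicate 3 and LMC radial replicate 2 had Tek above 5, as did LMC radial replicate 1, whose Hbb-y of 8.94 lay within the range of the others.

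Between phrenic and C3-C5 GFP-only arrays the non-overlapping genes were Slc1a3, Gja1, Lbx1, Cdh5 and Csf1r, 5 of 30 and all higher in phrenic, against 3.51% of all probe sets. Of these, Cdh5 and Csf1r lay below 5 on every array, and their other probe sets overlapped. Between LMC radial and C3-C5 GFP-only arrays 6 of 30 did not overlap and all were higher in LMC radial (Sox9, Hes1, Hes5, Olig2, Gja1 and Adgre1), against 11.4%. Some gaps were small: the lowest LMC radial and highest C3-C5 GFP-only levels were 4.09 and 4.07 for Hes1 and 3.43 and 3.38 for Adgre1. None of the 30 was called in that comparison, where 3.76% of all probe sets were called, and 5 were at an unadjusted p under 0.05. The median difference of the genes was 0.27, against 0.00 over all probe sets.

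Between phrenic and LMC radial arrays limma called 0 of 30 genes, where it called 6.61% of all probe sets, and 8 were at an unadjusted p under 0.05. Their median difference was 0.03, against -0.01 over all probe sets, with 15 genes on either side of 0. Csf1r alone was higher without overlap, against 8.08%, and Olig2 and Adgre1 lower, against 10.6%. For phrenic and for LMC radial arrays against the mean of the other types 0 genes were called, where 3.85% and 7.02% of all probe sets were, and 8 and 5 were at an unadjusted p under 0.05.

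**Figure D3:**
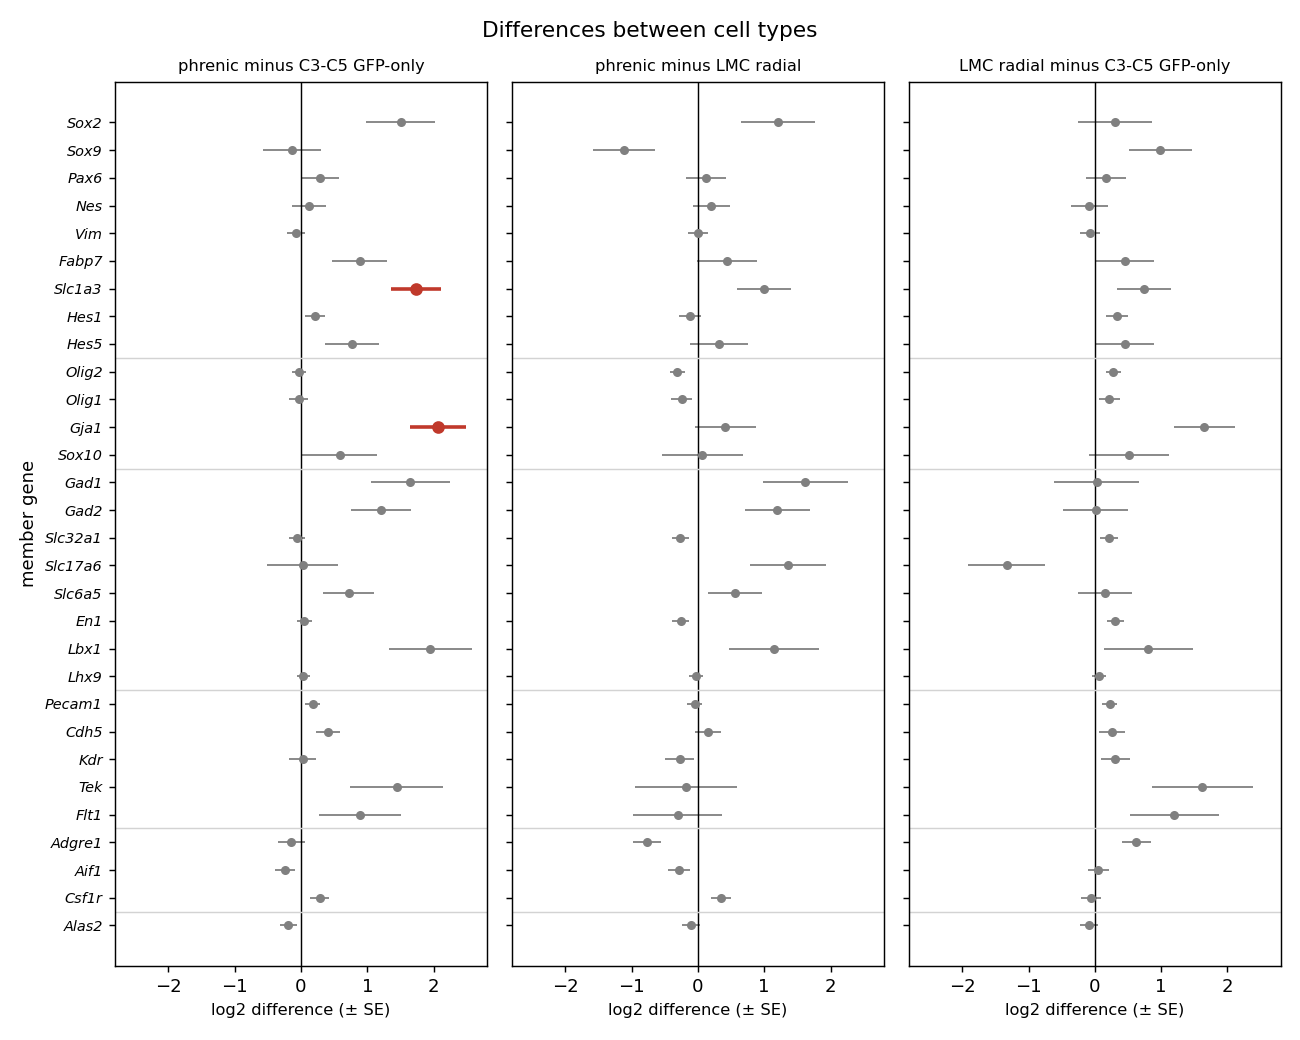
Difference in log2 level between cell types for each of the 30 marker genes, with its SE from limma, for the 3 pairwise comparisons; red points passed an adjusted p of 0.05. Gja1 and Slc1a3 are the 2 red points, both in phrenic minus C3-C5 GFP-only arrays, and most points of the left and right panels lie above 0.

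Other genes of these cells, and of cells outside the cord, were summarised on the same arrays. The mean of 17 further progenitor genes was 8.26 in phrenic replicate 4, 7.22, 6.42 and 7.10 in phrenic replicates 1 to 3, 6.27 to 6.62 in C3-C5 GFP-only and 6.37 to 7.14 in LMC radial arrays. Of these 17, 1 was called higher in phrenic than in C3-C5 GFP-only arrays, where 0.973% of all probe sets were. It was Zic1, a factor of the dorsal neural tube (1.47 ± 0.30, SE; limma, adjusted p = 0.0332). The median difference of the 17 was 0.98 in that comparison. Another call was 1 gene higher in phrenic than in LMC radial arrays, where 6.61% were called in either direction. Against the mean of the other types, Neurog1 was called higher in phrenic arrays (limma, adjusted p = 0.0339), where 3.85% were called. Id4 was called lower in LMC radial arrays (adjusted p = 0.0288), where 7.02% were. Of 8 cell cycle genes 1 was called higher in phrenic than in C3-C5 GFP-only arrays, against the same 0.973%. It was the mitotic kinase Cdk1 (1.77 ± 0.37, SE; adjusted p = 0.0384), and the mean of the 8 was 7.85 in phrenic replicate 4 against 5.42 to 6.78 elsewhere.

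The largest of these shifts was in 15 genes of mesenchyme and cartilage. Their mean was 5.66 to 7.01 in phrenic, 4.86 to 5.07 in C3-C5 GFP-only and 5.32 to 6.35 in LMC radial arrays, and highest in phrenic replicate 4. All 15 differences between phrenic and C3-C5 GFP-only arrays were above 0, with a median of 1.40, and 3 were called higher, where 0.973% of all probe sets were. These were Fn1, which encodes fibronectin (1.49 ± 0.26, SE; adjusted p = 0.0148), the factor Foxc1 (2.15 ± 0.38; adjusted p = 0.0155) and the matrix protein Postn (1.35 ± 0.28; adjusted p = 0.0384). With values below 5 raised to 5 the fold of Postn was 1.13, against 2.81 for Fn1 and 3.64 for Foxc1. In LMC radial minus C3-C5 GFP-only arrays all 15 were also above 0, with a median of 0.88 and 0 called. Against the mean of the other types 3 were called higher in phrenic arrays, where 3.85% of all probe sets were called. Called lower in C3-C5 GFP-only arrays were 2, against 0.282%. The part of these cells in the levels of Gja1, Slc1a3, Sox9 and Vim was not tested.

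The 12 further glial genes, among them Gfap, had 0 called in each of the 3 pairwise comparisons, with 3, 1 and 4 at an unadjusted p under 0.05 in phrenic against C3-C5 GFP-only, phrenic against LMC radial and LMC radial against C3-C5 GFP-only arrays. The 16 further vascular genes also had 0 called, with 6, 2 and 4 at that p. Their mean was 4.23 to 4.87 in phrenic, 4.02 to 4.21 in C3-C5 GFP-only and 4.27 to 4.70 in LMC radial arrays. It was highest in phrenic replicate 4, unlike that of the 5 vascular markers. Of 17 further interneuron genes 1, Gata3, was called lower in phrenic than in LMC radial arrays (-0.80 ± 0.14, SE; adjusted p = 0.00696), where 6.61% of all probe sets were called, and higher in LMC radial than in C3-C5 GFP-only arrays (0.59 ± 0.14; adjusted p = 0.0445), where 3.76% were. All its levels were below 5. The mean of the 5 further neural crest and Schwann cell genes was highest in phrenic replicate 4, at 7.20, against 5.32 to 6.27 elsewhere, with 0 called and 1, 1 and 0 at that p. Of 4 sensory neuron genes 0 were called, with 1, 0 and 0 at that p. Of 5 skeletal muscle genes 1, the muscle factor Myod1, was higher in LMC radial arrays than in the mean of the other types (0.88 ± 0.18, SE; adjusted p = 0.0176), where 7.02% of all probe sets were called. Its type means were all below 5.

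**Figure D4:**
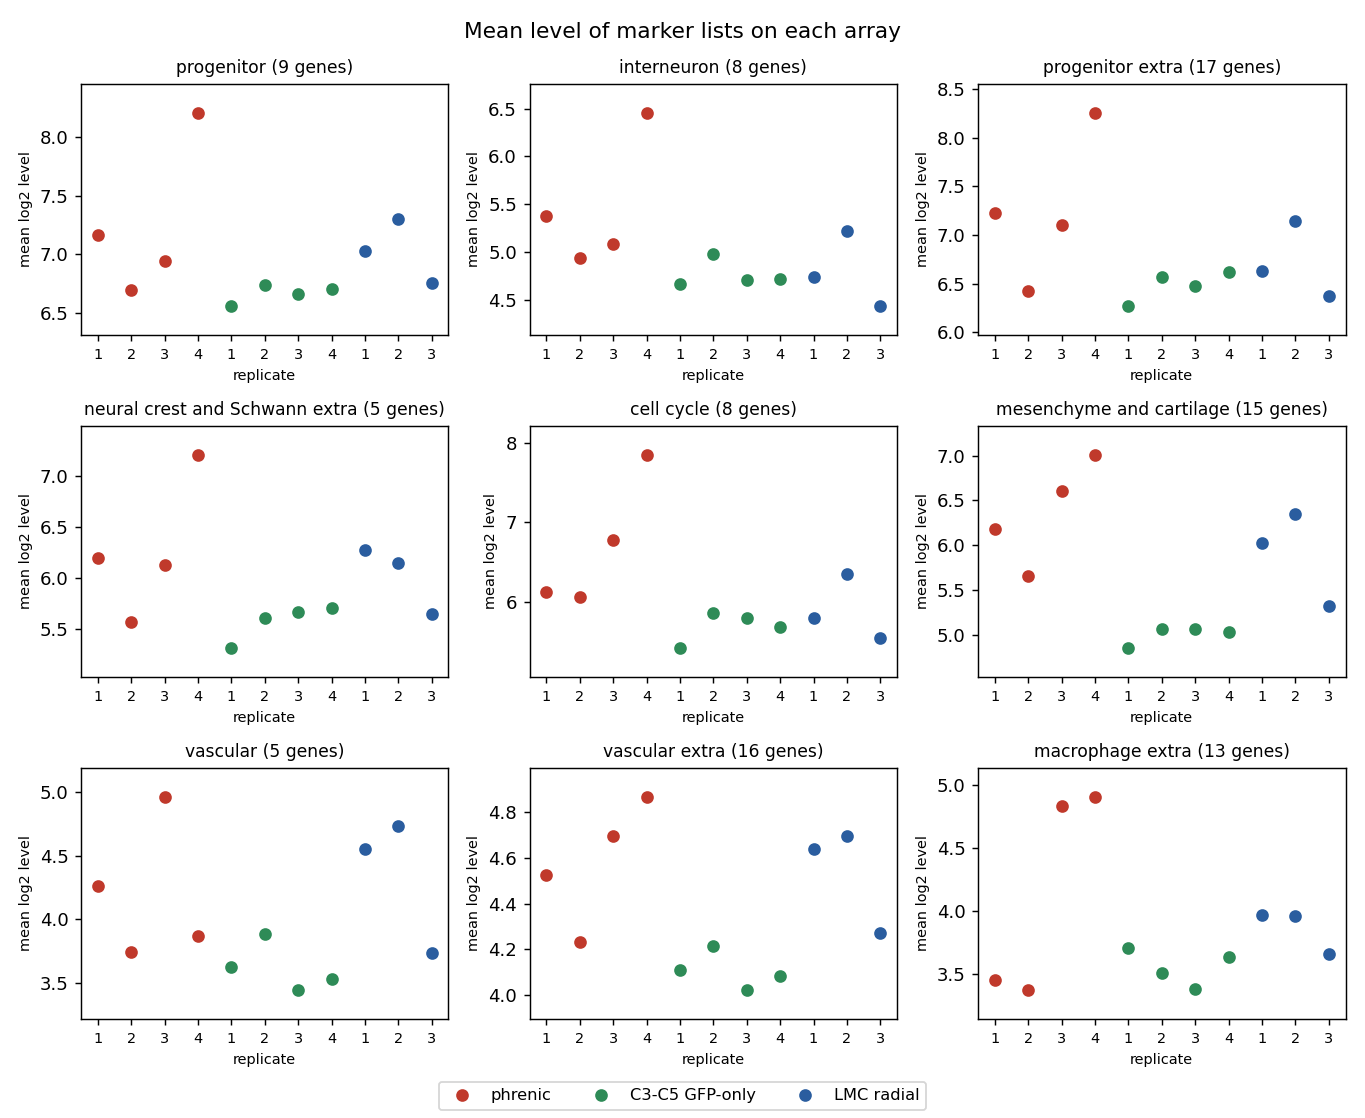
Mean log2 level of 9 marker lists on each array, in the order of replicates within each type; vertical scales differ between panels. Phrenic replicate 4 leads every list drawn but the vascular list of 5 genes, which phrenic replicate 3 leads. Phrenic replicates 3 and 4 stand above the other arrays in the macrophage list. The C3-C5 GFP-only arrays have the lowest type mean in all 9 panels. Of the lists not drawn, both glial lists, the further interneuron list and the skeletal muscle list also had it there. The macrophage markers (3.44) and both erythroid lists had it in phrenic arrays. The sensory neuron (5.83) and motor neuron lists had it in LMC radial arrays. Phrenic replicate 4 did not lead the macrophage, erythroid, further glial and skeletal muscle lists.

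RNA quality differed between arrays as well. The difference between the 3′ and 5′ control probe sets of Actb, which grows as RNA is degraded, was 1.05, 1.71, 2.15 and 1.96 in phrenic arrays 1 to 4. It was 1.07 to 1.98 in C3-C5 GFP-only and 1.01 to 1.12 in LMC radial arrays. With it as a covariate Gja1 differed by 2.07 between phrenic and C3-C5 GFP-only arrays (adjusted p = 0.0488) and Slc1a3 by 1.67 (adjusted p = 0.0656).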

How the data were processed

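The deposited table holds log2 values per probe set and array. The authors made them with RMA, per the submitters' processing notes; its version and settings are not given in the sources used here. Biotinylated cRNA was made from 6 ug of total RNA, per the labels' protocols. Of 45101 probe sets, 64 controls were left out and 45037 were tested; 34945 had 1 symbol, 932 several and 9160 none.

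One mean per cell type was fitted over all 11 arrays with limma 3.58.1 (R 4.3.3). Moderated two-sided tests had 8 residual and 2.92 prior degrees of freedom. P-values were adjusted by the Benjamini-Hochberg method over all probe sets within each of 6 comparisons. The code was tested on simulated data. The markers, lists, tests and alternatives were chosen with earlier results of these data known. All markers are named, with values by array for called genes and for those of widest range in each role, and at most 4 genes of each other list, those with the smallest p.

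Replicate numbers come from the sample titles. Deviations of same-numbered phrenic and C3-C5 GFP-only arrays correlated at 0.13 to 0.22 in 4 of 4 pairs, so the blocked values are given beside the calls of the fit without a block, although 0 of 4 phrenic arrays correlated best with their own number. The 6 pairs with LMC radial arrays gave -0.08 to 0.05. Alternatives to the normalization, filter, variance prior, weights, blocks and arrays used are given in the closing section.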

Additional observations from a re-analysis of the deposited data

Results flagged for a closer look

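Of 60 groups of 4 arrays, 1 per marker gene and type, 7 had an array set far from the other 3, where chance gives about 1 in 20. The gap to the nearest array divided by the range is given for each and exceeds Dixon's critical value for 4 samples. Phrenic replicate 4 was high for Slc17a6 (ratio 0.893), at 8.63 against 6.48 to 6.71. Phrenic replicate 3 was high for Cdh5 (0.947), at 4.61 against 3.76 to 3.80. Phrenic replicate 2 was low for Slc32a1 (0.957), at 4.38 against 4.67 to 4.68, and for Adgre1 (1.0), at 2.46 against 3.11 in the other 3 arrays, which hold the same value. C3-C5 GFP-only replicate 4 was high for Fabp7 (0.942), at 8.20 against 8.02 to 8.03. The same array was low for Lbx1 (0.837), at 5.87 against 6.60 to 6.74, and for Alas2 (0.871), at 3.13 against 3.46 to 3.51. The groups of Slc32a1, Cdh5, Adgre1 and Alas2 lie below 5 on every array. The flags describe the chosen probe sets only. On a dimmer one of Slc17a6, phrenic replicate 1 (4.51) was high beside replicate 4 (4.87). On a dimmer one of Cdh5, phrenic replicate 3 was at 3.18 and replicate 1 was highest (3.65).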

How the results depend on the processing

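The calls of single genes kept their direction and mostly lost the threshold: Gja1 between phrenic and C3-C5 GFP-only arrays passed in 10 of 26 alternatives (adjusted p 0.00407 to 0.386), Slc1a3 in 7 of 26 (0.0166 to 0.306), and Gja1 in C3-C5 GFP-only against the mean of others in 9 of 23 (0.00757 to 0.166). Their differences ran from 1.28 to 2.85, from 0.55 (gene means) to 2.26 and from -2.33 to -1.54. The number called between phrenic and C3-C5 GFP-only arrays, 2, became 1 with quantile normalization, gene means or the Actb covariate, and 0 with values raised to 5, array weights, a replicate block, either array set alone, phrenic replicates 1 and 4 left out, a fit of both types only, or that fit with the block, which was chosen after seeing the data. For phrenic against LMC radial arrays, 0 became 1 with median centring, trend and robust variance, a replicate block or gene means, and 2 with array weights or without phrenic replicates 1 and 4. For LMC radial against C3-C5 GFP-only arrays, 0 became 1 with trend and robust variance or gene means, and 2 with array weights, without phrenic replicates 1 and 4, or with both types only. For phrenic against the mean of others, 0 became 1 with dim probe sets left out, trend and robust variance, or without phrenic replicates 1 and 4. For LMC radial against the mean of others, 0 became 1 with median centring, trend and robust variance or a replicate block, and 2 with array weights, gene means, or without phrenic replicates 1 and 4. For C3-C5 GFP-only against the mean of others, 1 became 2 with array weights and 0 with values raised to 5, a replicate block, the higher array set alone, the array set as a block, the Actb covariate, or without phrenic replicates 1 and 4. Leaving out 1 array gave 0 to 2 calls for phrenic against C3-C5 GFP-only, LMC radial against C3-C5 GFP-only, phrenic against the others and LMC radial against the others, and 0 to 1 for the other comparisons. The genes gained in alternatives were Sox9, Adgre1, Lhx9, Gja1 and Slc1a3. Without phrenic replicate 4, Sox9 was gained in LMC radial (1.30) and phrenic (-1.13) against the others and Adgre1 in LMC radial against the others (0.72). Without phrenic replicate 2, Gja1 (1.67) and Slc1a3 (1.67) were gained in phrenic against the others, and without LMC radial replicate 1, Slc1a3 (1.55). Gja1 in LMC radial against C3-C5 GFP-only arrays (1.65) was gained without phrenic replicate 2 or 4. Values of uncalled genes changed sign within the higher array set: Sox9 in phrenic against the mean of others to 0.16, and Lhx9 in LMC radial against the mean of others to -0.0084, also with the array set as a block. The cause of these changes was not tested.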
